A study of Mus musculus with 9 samples.

Results

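The 10 genes described here carry out or control de novo lipogenesis, the making of fatty acids from carbohydrate-derived carbon, and were read from RNA sequencing of AML12 cells. They were set by name, with earlier results of these data known: Acly, Acaca, Acacb, Fasn, Scd1, Scd2, Elovl6, Me1, Mlxipl and Thrsp. All 10 were matched by Ensembl identifier among the 30350 genes of the deposited table. AML12 is an immortalised mouse hepatocyte line that was made from a mouse carrying a human transforming growth factor alpha transgene. It was used in 3 groups of 3 libraries. NC cells were kept in DMEM/F12 medium. FFA cells received free fatty acids in the same medium. FFA_SIN cells received free fatty acids for 24 h and then free fatty acids with 200 µM sinomenine, a plant alkaloid, for 48 h. The sources used here do not name the fatty acids, their dose, the length of the NC and FFA cultures or any vehicle for sinomenine. A difference between groups therefore cannot be told apart from a difference in culture time.

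De novo lipogenesis starts in the cytosol, where citrate exported from mitochondria is split into acetyl-CoA. Acetyl-CoA is carboxylated to malonyl-CoA, built into palmitate by fatty acid synthase with NADPH as the reductant, then elongated and desaturated. In liver the genes are switched on by insulin through SREBP1c and by glucose through ChREBP, and polyunsaturated fatty acids are known to lower their expression.

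The table gave FPKM, a level scaled to gene length and library depth, so levels can be set side by side between genes. The steps between low values implied 43201346 to 71391844 reads, or read pairs, per library. The annotated length of every member then gave whole numbers of reads, within a tolerance of 0.01. All 10 of 10 hepatocyte markers averaged 1 FPKM or more in each group, from Apoe at 1.74 FPKM in NC to Krt8 at 1420. Their summed level was 3981 to 4049 FPKM in NC, 4260 to 4297 in FFA and 4601 to 4691 in FFA_SIN, but its members went different ways. From NC to FFA_SIN the mean of Alb went from 198 to 555 FPKM, Ttr from 429 to 697 and Trf from 474 to 1019, while Krt8 went from 1420 to 1046, Krt18 from 1330 to 1172, Hnf4a from 131 to 104 and Apoa1 from 3.92 to 2.58. The 5 adipocyte markers summed to at most 0.0588 FPKM in any NC or FFA library and to 0.859 to 1.53 FPKM in FFA_SIN. The 4 endothelial markers stayed at or below 0.388 FPKM in sum. Cfd was at 0 in all NC and FFA libraries, Epcam of the cholangiocyte list and Lrat of the stellate list likewise. The 6 stellate cell or fibroblast markers summed to 9.95 to 10.2 FPKM in NC, 5.70 to 6.67 in FFA and 3.23 to 3.37 in FFA_SIN. Nearly all of this was Des (9.73, 5.81 and 2.94 FPKM), and the other 5 averaged at most 0.381 FPKM in any group. The 6 cholangiocyte markers summed to 1867 to 1940 FPKM in NC, 1777 to 1797 in FFA and 1580 to 1599 in FFA_SIN. Krt19 went from 1352 to 978 FPKM and Krt7 from 113 to 55.0, while Spp1 went from 402 to 503 and Sox9 from 12.6 to 27.9. Of 6 macrophage markers the 4 in the table summed to 695 to 712 FPKM in NC, 626 to 632 in FFA and 452 to 472 in FFA_SIN. Nearly all of this was Cd14 (697, 625 and 458 FPKM), with Lyz2 at 3.93 to 1.67 FPKM, Csf1r at 0.0193 to 0.141 and Ptprc at most 0.0157 FPKM. Mitochondrial transcripts took 9.93 to 10.3% of the summed FPKM in NC, 11.4 to 11.6% in FFA and 11.3 to 12.2% in FFA_SIN. The part of these shifts in the results below was not tested. In bulk RNA, fewer cells with a transcript and less transcript per cell cannot be told apart. The labels do not say whether the 3 libraries of a group came from separate cultures, and the p-values reflect only their spread, possibly a technical one.

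The members spanned a wide range of FPKM. In NC the order was Scd2 (484 ± 3.87 FPKM, mean ± SD, n = 3), Scd1 (170 ± 2.75), Me1 (129.6 ± 1.13), Acly (60.5 ± 0.341), Fasn (48.3 ± 0.729), Elovl6 (6.30 ± 0.369), Acaca (5.48 ± 0.0936) and Mlxipl (1.23 ± 0.171). Neighbours in this order did not overlap between libraries. Thrsp (0.0543 ± 0.0247 FPKM) and Acacb (0.0222 ± 0.0146 FPKM) came last and overlapped each other. Scd2 alone made up 53.4 ± 0.430% of the members' summed FPKM in NC, 54.2 ± 0.523% in FFA and 60.4 ± 0.549% in FFA_SIN. The members' summed FPKM was 904 to 907 in NC, 975 to 1024 in FFA and 1097 to 1130 in FFA_SIN.

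**Figure D1:**
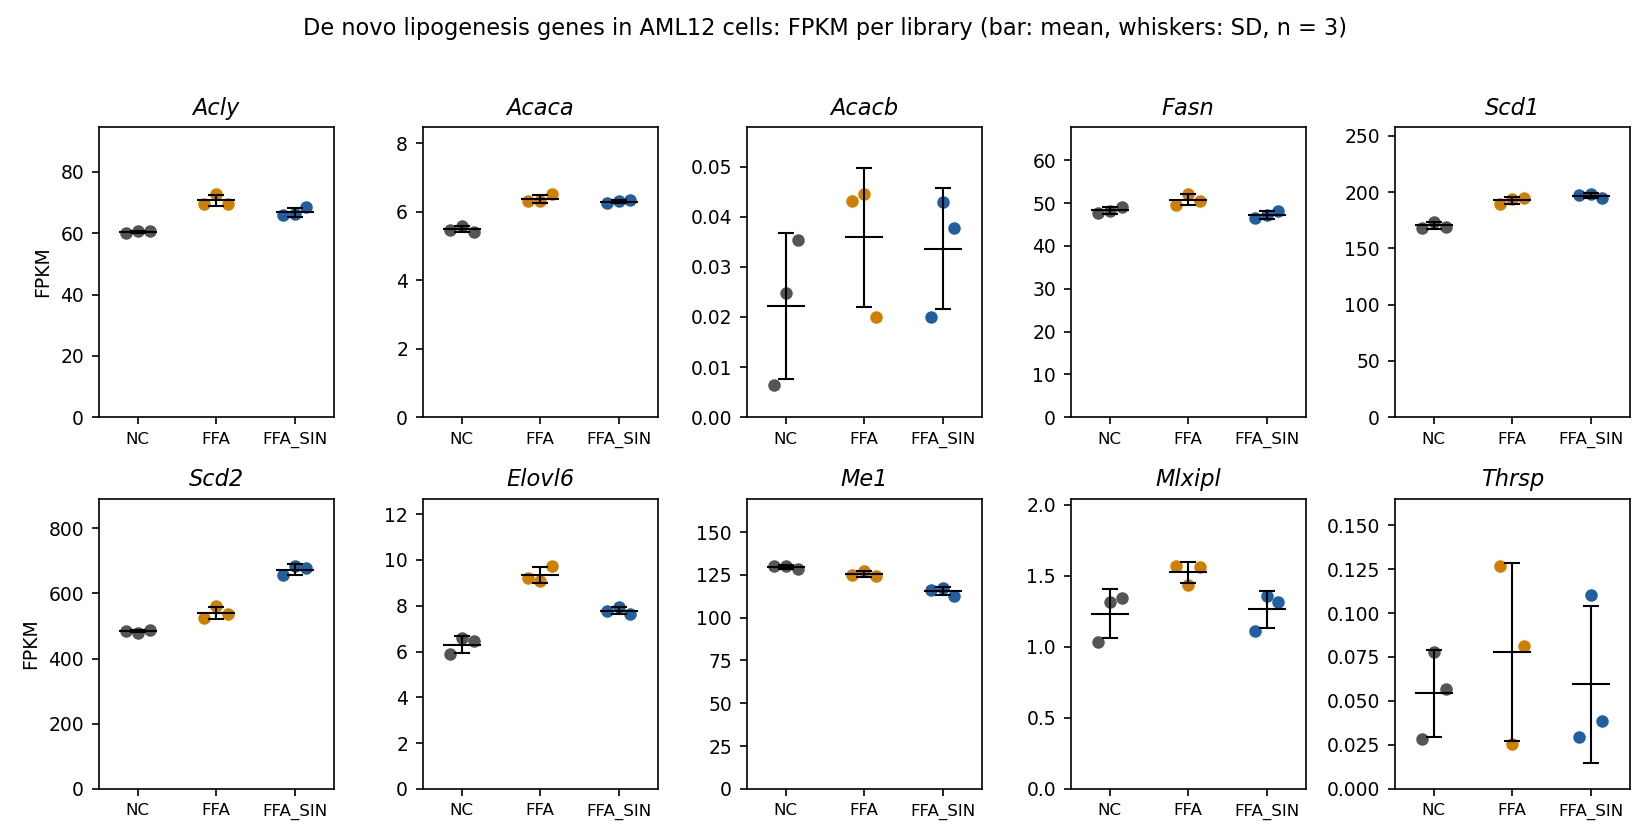
FPKM of the 10 genes in each of the 9 libraries (points), with the mean and SD of each group of 3 (bar and whiskers); every axis starts at 0. Scd2 climbed from NC to FFA to FFA_SIN, Elovl6 peaked in FFA, and Acacb and Thrsp were at most 0.127 FPKM in every library.

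Fatty acids came with higher lipogenic transcripts. Of the 8 members whose 9 libraries averaged 1 FPKM or more, 6 rose in FFA against NC (Elovl6, Acly, Scd1, Acaca, Scd2 and Fasn) and 0 fell. Tests used limma on log2(FPKM + 1) with p-values adjusted over all 11659 genes tested, of which 37.5% changed at an adjusted p below 0.05 and 19.1% rose. The members' median log2 fold change was 0.18, beside 0.00 over all genes tested. The largest change was in Elovl6, 48.2% higher in FFA in FPKM, while the other called rises were between 5.14% (Fasn) and 16.9% (Acly). The Fasn call was at the edge of the threshold (adjusted p = 0.0494) and was lost in 12 of 18 other settings. Mlxipl, which did not pass the test, was 23.5% higher in FPKM, a change that log2(FPKM + 1) understates at its low level. The FFA libraries lay wholly above NC for these 6 and for Mlxipl, and wholly below for Me1. Over all genes tested 48.9% did not overlap, 24.8% with FFA above and 24.1% with FFA below.

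Sinomenine on top of fatty acids split the group. Against FFA, 4 members fell (Me1, Elovl6, Fasn and Acly), Scd2 rose, and Acaca, Scd1 and Mlxipl did not pass the test. Of all genes tested 31.2% changed, 17.3% downwards. The members' median log2 fold change was -0.09, beside -0.01 over all genes tested. In FPKM, Elovl6 fell by 16.7%, Me1 fell by 8.01%, Fasn fell by 6.85% and Acly fell by 5.52%, and Scd2 was 24.5% higher. Mlxipl, which was not called, was 17.1% lower in FPKM. The FFA_SIN libraries lay wholly below FFA for these 4 and Mlxipl, wholly above for Scd2 and, by the narrowest margin, for Scd1, and overlapped for Acaca. Over all genes tested 45.5% did not overlap, 20.4% with FFA_SIN above and 25.1% below. Without FFA_SIN replicate 1, 3 members passed the threshold, since Fasn (adjusted p = 0.0502) and Acly (adjusted p = 0.0981) then missed it.

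Compared with untreated cells, FFA_SIN held 5 members higher (Scd2, Scd1, Elovl6, Acaca and Acly) and 1 lower (Me1). Fasn and Mlxipl did not pass the test. Of all genes tested 51.3% changed, 24.7% upwards and 26.5% downwards. The members' median log2 fold change was 0.16, beside -0.01 over all genes tested. The libraries of the 5 higher members lay wholly above NC and those of Me1 wholly below. Over all genes tested 60.1% did not overlap, 29.1% with FFA_SIN above and 31.0% below. The 3 comparisons share libraries and are not independent of each other.

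**Figure D2:**
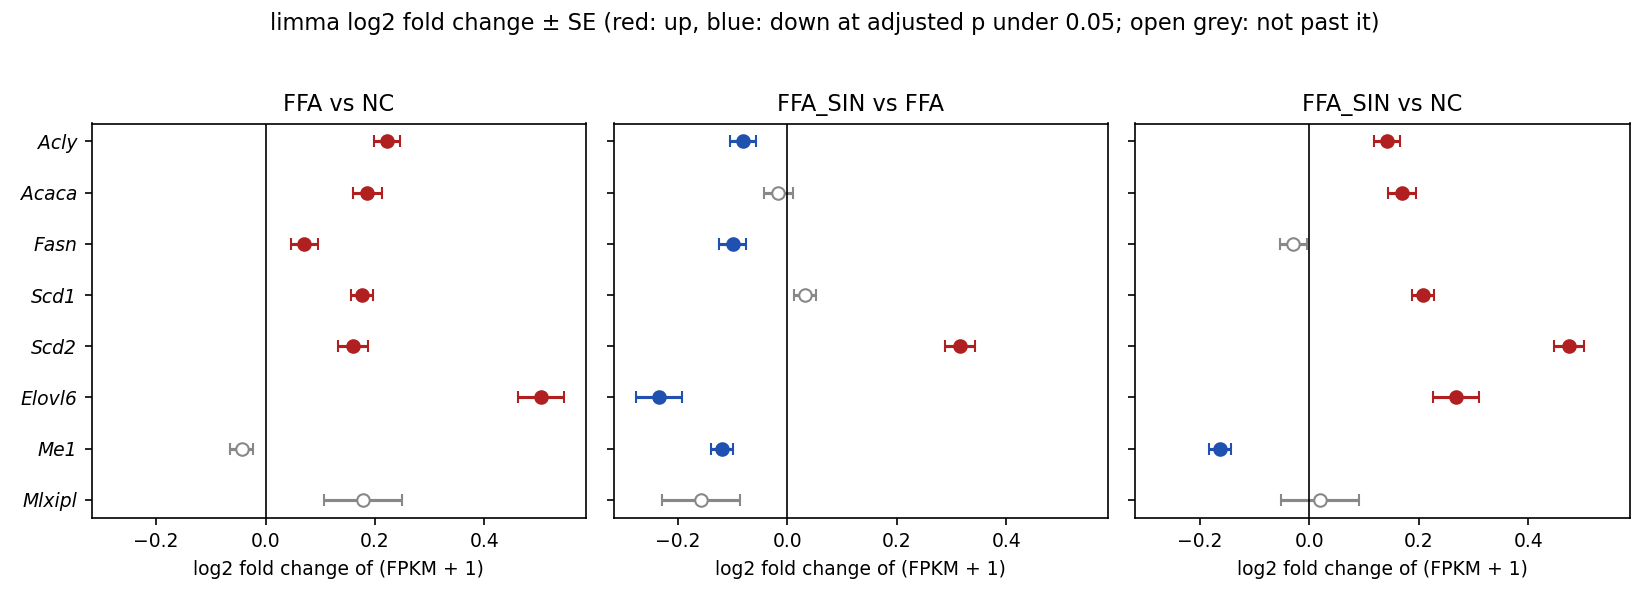
log2 fold change ± SE of (FPKM + 1) from limma for the 8 tested members (rows) in the 3 comparisons (panels). Elovl6 lay at 0.50 in FFA against NC and at -0.23 in FFA_SIN against FFA, and Scd2 was positive in all 3 panels.

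Acly and Fasn stand at the entry and centre of the pathway. Acly, ATP citrate lyase, splits citrate into acetyl-CoA and oxaloacetate. It had 60.1, 60.6 and 60.7 FPKM in NC, 69.7, 72.8 and 69.7 in FFA, and 65.8, 66.2 and 68.4 in FFA_SIN, from 15889 to 25791 reads per library. The FFA_SIN libraries lay between the other groups, with no overlap on either side. Acly rose in FFA against NC (log2 fold change 0.22 ± 0.02 SE, adjusted p = 0.000106), fell in FFA_SIN against FFA (-0.08 ± 0.02, adjusted p = 0.0303) and stayed above NC (0.14 ± 0.02, adjusted p = 0.000924). The call with sinomenine was lost in 7 of 18 other settings, with adjusted p from 0.0116 to 0.0981 over all 18. Leaving out FFA replicate 2 gave 0.0941, and leaving out FFA_SIN replicate 1 or 2 gave 0.0981 or 0.0953. It was 0.0702 with median-of-ratios scaling, 0.0605 with no filter, 0.0594 with only the 2 groups compared and 0.0563 with no variance trend.

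Fasn, the multi-domain synthase that makes palmitate, had 47.6, 48.3 and 49.1 FPKM in NC, 49.6, 52.1 and 50.6 in FFA, and 46.5, 47.2 and 48.3 in FFA_SIN. The FFA libraries were above both other groups, and NC and FFA_SIN overlapped. Fasn was called higher in FFA than in NC (log2 fold change 0.07 ± 0.02, adjusted p = 0.0494). That call was lost in 12 of 18 other settings, with adjusted p from 0.0150 to 0.217. Among them it was 0.138, 0.101 and 0.0589 without NC replicates 1, 2 and 3, 0.153 and 0.0978 without FFA replicates 2 and 3, and 0.0562 and 0.0705 without FFA_SIN replicates 1 and 2. In FFA_SIN against FFA Fasn fell (log2 fold change -0.10 ± 0.02, adjusted p = 0.0130), a call lost without FFA_SIN replicate 1 (adjusted p = 0.0502). FFA_SIN against NC did not pass the test (log2 fold change -0.03 ± 0.02, 95% interval -0.09 to 0.03, adjusted p = 0.345).

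Acaca and Acacb encode the acetyl-CoA carboxylases that make malonyl-CoA. The product of Acaca feeds synthesis in the cytosol, while that of Acacb, at the mitochondrial outer membrane, restrains fatty acid import. Acaca had 5.45, 5.59 and 5.41 FPKM in NC, 6.30, 6.32 and 6.51 in FFA, and 6.24, 6.31 and 6.33 in FFA_SIN. NC was below both other groups, which overlapped each other. Acaca rose in FFA against NC (log2 fold change 0.19 ± 0.03, adjusted p = 0.000574) and was higher in FFA_SIN than in NC (0.17 ± 0.03, adjusted p = 0.000560). FFA_SIN against FFA gave -0.02 ± 0.03 (95% interval -0.08 to 0.04, adjusted p = 0.685).

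Acacb was barely read at all. It had 4 to 22 reads per library in NC (0.00646 to 0.0354 FPKM), 13 to 23 in FFA (0.0199 to 0.0446 FPKM) and 12 to 26 in FFA_SIN (0.0200 to 0.0430 FPKM). Summed over a group these were 40 reads in NC (95% exact Poisson interval 28.6 to 54.5), 54 in FFA (40.6 to 70.5) and 62 in FFA_SIN (47.5 to 79.5), intervals that cover counting error only. The groups overlapped, Acacb was below the 1 FPKM filter and no test was made of it alone. Acaca FPKM was 153 to 844 times that of Acacb in NC, 142 to 327 times in FFA and 147 to 312 times in FFA_SIN. A two-sided exact permutation test of the log2 ratio over all 1680 assignments of libraries to the 3 groups did not pass (p = 0.607, where the smallest possible p is 0.00357). A change in this ratio was not detectable at the depth of Acacb.

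Elovl6 moved furthest with fatty acids. It extends palmitate to stearate. Its levels were 5.88, 6.58 and 6.45 FPKM in NC, 9.22, 9.07 and 9.75 in FFA, and 7.77, 7.96 and 7.63 in FFA_SIN, from 2431 to 4245 reads per library. The 3 groups were wholly separate, with FFA_SIN in the middle. Elovl6 rose in FFA against NC (log2 fold change 0.50 ± 0.04, adjusted p = 2.09e-05) and fell in FFA_SIN against FFA (-0.23 ± 0.04, adjusted p = 0.00237). FFA_SIN remained 23.5% above NC in FPKM (log2 fold change 0.27 ± 0.04, adjusted p = 0.000558).

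The desaturases Scd1 and Scd2 put a double bond into stearate and palmitate to give oleate and palmitoleate. In adult mouse liver Scd1 is the main form, and Scd2 is known from brain and from fetal and newborn liver. They are close paralogs, the sources used here do not name the counting tool, and levels of each are uncertain to the extent that reads shared by both were split. In AML12 cells Scd2 was above Scd1 in every library. Scd1 had 168, 173 and 169 FPKM in NC, 189, 194 and 194 in FFA, and 198, 198 and 194 in FFA_SIN. Scd1 rose in FFA against NC (log2 fold change 0.18 ± 0.02, adjusted p = 0.000135) and was higher in FFA_SIN than in NC (0.21 ± 0.02, adjusted p = 2.20e-05). Sinomenine against fatty acids alone gave 0.03 ± 0.02 (95% interval -0.01 to 0.08, adjusted p = 0.261).

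Scd2 had 486, 479 and 486 FPKM in NC, 524, 561 and 537 in FFA, and 655, 685 and 679 in FFA_SIN, from 123704 to 264904 reads per library. Each group lay wholly above the one before. Scd2 rose in FFA against NC (log2 fold change 0.16 ± 0.03, adjusted p = 0.00182), rose again in FFA_SIN against FFA (0.32 ± 0.03, adjusted p = 2.99e-05) and was 39.1% above NC in FFA_SIN (0.47 ± 0.03, adjusted p = 7.53e-07).

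The balance of the desaturases was taken as a ratio within each library. The Scd1 to Scd2 ratio in FPKM was 0.352 ± 0.00844 in NC, 0.356 ± 0.00919 in FFA and 0.293 ± 0.00833 in FFA_SIN (SD, n = 3). NC and FFA overlapped, and FFA_SIN, at 0.286 to 0.302, was below the lowest of the other libraries at 0.346. As a log2 ratio, FFA_SIN differed from FFA by -0.28 ± 0.03 (SE) and from NC by -0.27 ± 0.03, while FFA differed from NC by 0.02 ± 0.03. The two-sided exact permutation test over the 3 groups gave p = 0.0321 (smallest possible 0.00357). An exact permutation test of 3 libraries against 3 cannot go below p = 0.1, so no pair of groups was tested on its own. The ratio does not depend on scaling between libraries.

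**Figure D3:**
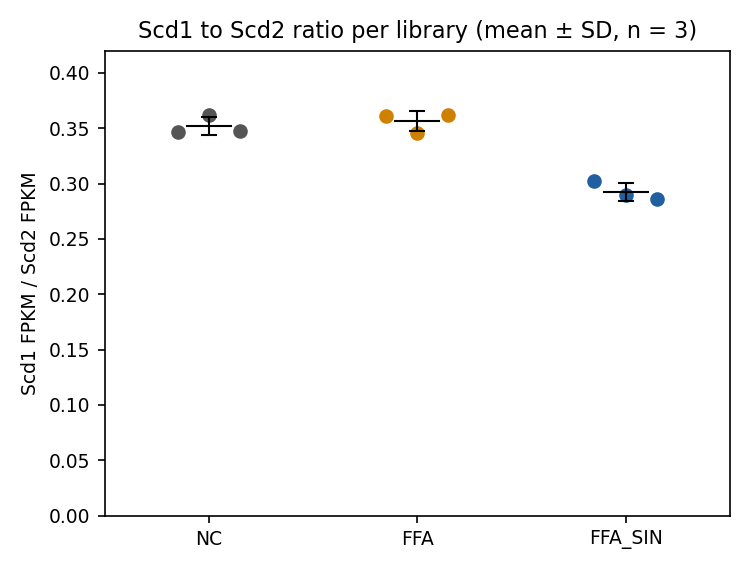
Scd1 FPKM divided by Scd2 FPKM in each library (points), with the mean and SD of each group of 3; the axis starts at 0. FFA_SIN libraries sit at 0.286 to 0.302, under all NC and FFA libraries.

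Me1, the cytosolic malic enzyme, turns malate into pyruvate and supplies NADPH to fatty acid synthase. It was the only tested member that fell in FFA_SIN against NC. Its levels were 130.0, 130.4 and 128 FPKM in NC, 125, 128 and 125 in FFA, and 116, 118 and 113 in FFA_SIN, and the groups were wholly separate. Me1 fell in FFA_SIN against FFA (log2 fold change -0.12 ± 0.02, adjusted p = 0.00217) and against NC (-0.16 ± 0.02, adjusted p = 0.000161). FFA against NC gave -0.04 ± 0.02 (95% interval -0.09 to 0.00, adjusted p = 0.136), which passed only when libraries were rescaled to an equal FPKM sum (TPM; -0.07, adjusted p = 0.0400).

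Mlxipl encodes ChREBP, the glucose-sensing factor that switches on Fasn, Acaca, Elovl6 and pyruvate kinase in liver. It was read at low level, with 1.04, 1.32 and 1.35 FPKM in NC, 1.57, 1.44 and 1.57 in FFA, and 1.11, 1.36 and 1.32 in FFA_SIN, from 369 to 587 reads. All FFA libraries were above all others, and NC and FFA_SIN overlapped. NC replicate 1, at 1.04 FPKM, had a 95% counting interval of 0.934 to 1.15 that did not reach NC replicate 2 (1.20 to 1.45), so replicates differed by more than counting error. Mlxipl did not pass in FFA against NC (log2 fold change 0.18 ± 0.07, adjusted p = 0.0777), in FFA_SIN against FFA (-0.16 ± 0.07, adjusted p = 0.124) or in FFA_SIN against NC (0.02 ± 0.07, 95% interval -0.14 to 0.18, adjusted p = 0.837). In limma-voom on the recovered reads, a setting chosen after seeing the data, FFA against NC gave 0.32 (adjusted p = 0.0282) and FFA_SIN against FFA -0.27 (adjusted p = 0.0581). Of 17 other settings, the remaining 16 did not pass in FFA against NC. With each library left out the adjusted p there was 0.0711 to 0.232.

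Thrsp (Spot 14), a small nuclear protein induced by thyroid hormone and carbohydrate in rodent liver, had almost no reads. It had 4, 10 and 8 reads in NC, 12, 3 and 12 in FFA, and 4, 14 and 6 in FFA_SIN, or 0.0256 to 0.127 FPKM over all 9 libraries. Summed reads were 22 in NC (95% exact Poisson interval 13.8 to 33.3), 27 in FFA (17.8 to 39.3) and 24 in FFA_SIN (15.4 to 35.7). The groups overlapped, and no difference was detectable at this depth. Its paralog Mid1ip1, which helps acetyl-CoA carboxylase to form active polymers, was well read at 78.0 FPKM in NC, 80.5 in FFA and 91.3 in FFA_SIN. Mid1ip1 rose in FFA_SIN against FFA (log2 fold change 0.18 ± 0.02, adjusted p = 0.000216).

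Promoters are shown for Elovl6, Acly and Fasn, the 3 members called higher in FFA against NC and lower in FFA_SIN against FFA. The Fasn call in FFA against NC was lost in 12 of 18 other settings. The Acly call in FFA_SIN against FFA was lost in 7 of 18. Elovl6 had the largest change in FFA against NC, and Acly and Fasn were added after their values were seen. Scd2, with the largest called change in FFA_SIN against FFA, had no promoter in the set searched, nor had Scd1. Each runs from 250 bases before to 50 bases after the start site, 5′ to 3′ on the gene's strand. The promoters are from RefSeq on GRCm38.p6, which is not the build that the submitters name for the alignment. The windows are chr3:129532136-129532435 on the plus strand for Elovl6, chr11:100527951-100528250 on the minus strand for Acly and chr11:120824498-120824797 on the minus strand for Fasn. Capitals mark matches, on either strand, to the NF-Y box or the GC box, whose letters follow the sequences.
Elovl6: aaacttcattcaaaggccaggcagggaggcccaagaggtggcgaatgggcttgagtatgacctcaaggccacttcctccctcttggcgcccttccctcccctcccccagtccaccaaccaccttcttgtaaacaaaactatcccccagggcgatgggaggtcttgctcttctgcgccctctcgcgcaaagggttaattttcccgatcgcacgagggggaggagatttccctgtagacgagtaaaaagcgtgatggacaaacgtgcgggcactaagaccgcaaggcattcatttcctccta
Acly: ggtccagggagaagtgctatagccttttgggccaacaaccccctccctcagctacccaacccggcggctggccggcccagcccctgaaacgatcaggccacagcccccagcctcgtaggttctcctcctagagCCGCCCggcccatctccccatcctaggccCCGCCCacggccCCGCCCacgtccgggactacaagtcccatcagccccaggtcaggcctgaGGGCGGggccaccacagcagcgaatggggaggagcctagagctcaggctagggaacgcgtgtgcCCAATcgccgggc
Fasn: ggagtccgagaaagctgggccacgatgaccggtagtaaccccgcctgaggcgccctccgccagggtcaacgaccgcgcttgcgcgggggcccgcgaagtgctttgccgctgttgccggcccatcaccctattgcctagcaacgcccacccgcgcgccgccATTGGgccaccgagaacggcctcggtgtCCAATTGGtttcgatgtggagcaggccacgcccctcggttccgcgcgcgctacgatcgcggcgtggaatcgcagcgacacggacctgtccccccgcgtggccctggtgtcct

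The letters found differed between these 3 promoters. The search covered both strands for 4 motifs. They were the sterol regulatory element core, read as TCACNCCAC, the E-box, read as CACGTG, the NF-Y box, read as CCAAT, and the GC box, read as GGGCGG. Elovl6 held none of them in this window. Acly held 4 GC boxes and 1 NF-Y box, and Fasn held 3 NF-Y matches, of which the pair nearest the start site overlap each other. In all, 8 members matched 10 promoters, with 2 each for Me1 and Mlxipl. CCAAT was found in 6 of the 10 and in 37.4% of all 32851 promoters of the same length, and GGGCGG in 3 of the 10 and in 35.7%. CACGTG was found in 1, a promoter of Mlxipl, and in 7.15% of all, and TCACNCCAC in 1, the other promoter of Mlxipl, and in 1.24%. A match is a run of letters, not a bound site.

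The supply of citrate, acetyl-CoA and NADPH was read through 14 tested genes of 16 listed. Over all genes tested, 19.1% rose and 18.4% fell in FFA against NC, and 13.9% rose and 17.3% fell in FFA_SIN against FFA. In FFA_SIN against NC 24.7% rose and 26.5% fell, and these shares stand beside the counts of each list below. Of the 14 supply genes, 8 rose and 2 fell in FFA against NC, at a median log2 fold change of 0.09. Glucose-6-phosphate dehydrogenase, G6pdx, which opens the NADPH-making pentose phosphate route, rose from 24.8 to 31.4 FPKM (adjusted p = 2.27e-05). Pyruvate carboxylase, Pcx, which makes oxaloacetate for citrate, fell from 16.7 to 8.55 FPKM (adjusted p = 3.60e-08). In FFA_SIN against FFA 4 rose and 5 fell, at a median of -0.06. G6pdx fell to 24.7 FPKM (adjusted p = 1.93e-05) and cytosolic isocitrate dehydrogenase, Idh1, another NADPH source, fell from 151 to 116 FPKM (adjusted p = 1.60e-06). Pgd, the next NADPH-making step after G6pdx and named here after its values were seen, fell from 57.7 to 51.3 FPKM (adjusted p = 0.000608). Me2, a mitochondrial malic enzyme on the same list, rose from 12.9 to 15.4 FPKM (log2 fold change 0.24 ± 0.02, adjusted p = 3.65e-05). Its NC level was 15.1 FPKM, and FFA_SIN against NC did not pass (adjusted p = 0.471). Idh2, the mitochondrial isocitrate dehydrogenase that makes NADPH (122 and 116 FPKM, adjusted p = 0.0518), and Pgls, the pentose phosphate lactonase (24.9 and 24.8 FPKM, adjusted p = 0.937), did not pass. In FFA_SIN against NC 5 rose and 4 fell, at a median of 0.02.

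The regulators of lipogenic transcription moved both ways, as did all genes tested, by the shares given above. Of 18 tested genes of 20 listed, 3 rose and 5 fell in FFA against NC, 5 rose and 4 fell in FFA_SIN against FFA, and 6 rose and 6 fell in FFA_SIN against NC, with medians of 0.00, 0.00 and -0.01. Srebf1, which encodes SREBP1a and SREBP1c, had 68.4 to 70.0 FPKM in NC, 64.7 to 67.2 in FFA and 73.4 to 78.0 in FFA_SIN. Srebf1 rose in FFA_SIN against FFA (log2 fold change 0.21 ± 0.03, adjusted p = 0.000317). In the same comparison Scd2 and Insig1 also rose, and Elovl6, Fasn and Acly fell. FFA against NC gave -0.07 ± 0.03 for Srebf1 (adjusted p = 0.0492), at the edge of the threshold. This call was not followed under the other settings. Srebf2, the factor of cholesterol synthesis, rose from 91.6 to 104 FPKM with fatty acids (adjusted p = 0.00127) and fell back to 91.6 FPKM in FFA_SIN (against FFA, adjusted p = 0.00139). Insig1, which holds back SREBP activation and is itself an SREBP target, rose in each comparison, to 24.3 FPKM in FFA and 30.3 in FFA_SIN from 8.85 in NC. Rxra fell in each comparison, with 18.7 FPKM in NC, 15.8 in FFA and 14.2 in FFA_SIN. Its adjusted p was 0.000295 in FFA against NC, 0.00611 in FFA_SIN against FFA and 6.32e-06 in FFA_SIN against NC.

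Among other steps of elongation and desaturation, of 10 tested genes of 14 listed, 8 rose and 0 fell in FFA against NC, at a median of 0.23. In FFA_SIN against FFA 0 rose and 2 fell, at a median of 0.01, and in FFA_SIN against NC 8 rose and 0 fell, at a median of 0.26. Fads1, the delta-5 desaturase of polyunsaturated chains, was at 73.8 FPKM in NC, 111 in FFA and 111 in FFA_SIN. Fads2, the delta-6 desaturase, rose from 115 to 162 FPKM (adjusted p = 6.03e-07) and fell to 141 with sinomenine (adjusted p = 0.000224). Hsd17b12, the ketoacyl reductase of the elongation cycle, was at 72.8 FPKM in NC, 90.3 in FFA and 91.5 in FFA_SIN. It was higher than in NC in FFA (adjusted p = 2.22e-05) and in FFA_SIN (adjusted p = 6.15e-06). FFA_SIN against FFA did not pass for Hsd17b12 (adjusted p = 0.624). Elovl1, which extends very long chains, rose from 21.8 to 26.0 FPKM in FFA against NC (adjusted p = 2.08e-05).

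Among genes that respond to glucose through ChREBP, of 7 tested genes of 11 listed, 3 rose and 3 fell in FFA against NC, 0 rose and 5 fell in FFA_SIN against FFA, and 1 rose and 4 fell in FFA_SIN against NC, with medians of 0.02, -0.27 and -0.10. Txnip, a glucose-induced brake on glucose uptake, rose from 9.13 to 18.1 FPKM in FFA and fell to 11.4 in FFA_SIN (log2 fold change against FFA -0.62 ± 0.03, adjusted p = 1.53e-06). Gpd1, which makes the glycerol backbone of triglyceride, fell from 17.0 to 12.2 and then to 7.63 FPKM (against FFA -0.61 ± 0.04, adjusted p = 5.08e-06). Klf10, a transcription factor induced by ChREBP, rose from 11.2 to 14.0 FPKM and fell to 10.3 (against FFA -0.41 ± 0.03, adjusted p = 4.19e-06).

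For AMPK, malonyl-CoA removal and protein control of the pathway, of 10 tested genes of 12 listed, 1 rose and 2 fell in FFA against NC, 1 rose and 3 fell in FFA_SIN against FFA, and 1 rose and 2 fell in FFA_SIN against NC, with medians of 0.02, -0.06 and -0.07. The gene that rose each time was Trib3, a pseudokinase that in mouse fat brings acetyl-CoA carboxylase to the ubiquitin ligase COP1. Trib3 had 14.4 FPKM in NC, 19.1 in FFA and 33.5 in FFA_SIN (against FFA 0.78 ± 0.04, adjusted p = 6.07e-07). Prkab1, a regulatory subunit of AMPK, the kinase that shuts off acetyl-CoA carboxylase, fell from 38.6 FPKM in FFA to 35.5 in FFA_SIN (adjusted p = 0.00573).

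Mitochondrial fatty acid synthesis, a separate route that makes the lipoic acid precursor, was read beside these lists. Of 9 tested genes of 10 listed, 1 rose and 0 fell in FFA against NC, 0 rose and 2 fell in FFA_SIN against FFA, and 2 rose and 2 fell in FFA_SIN against NC, with medians of 0.02, -0.01 and 0.03. Lias, lipoic acid synthase, rose from 6.63 to 7.91 FPKM in FFA (adjusted p = 0.00293). In FFA_SIN against FFA, Lipt2 fell from 6.89 to 4.98 FPKM (adjusted p = 0.00218). This was a fall of 27.7%, beside 16.7% for the member Elovl6. Acsf3 fell from 2.71 to 2.25 FPKM (adjusted p = 0.0233), a call lost in 3 of 17 other settings.

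**Figure D4:**
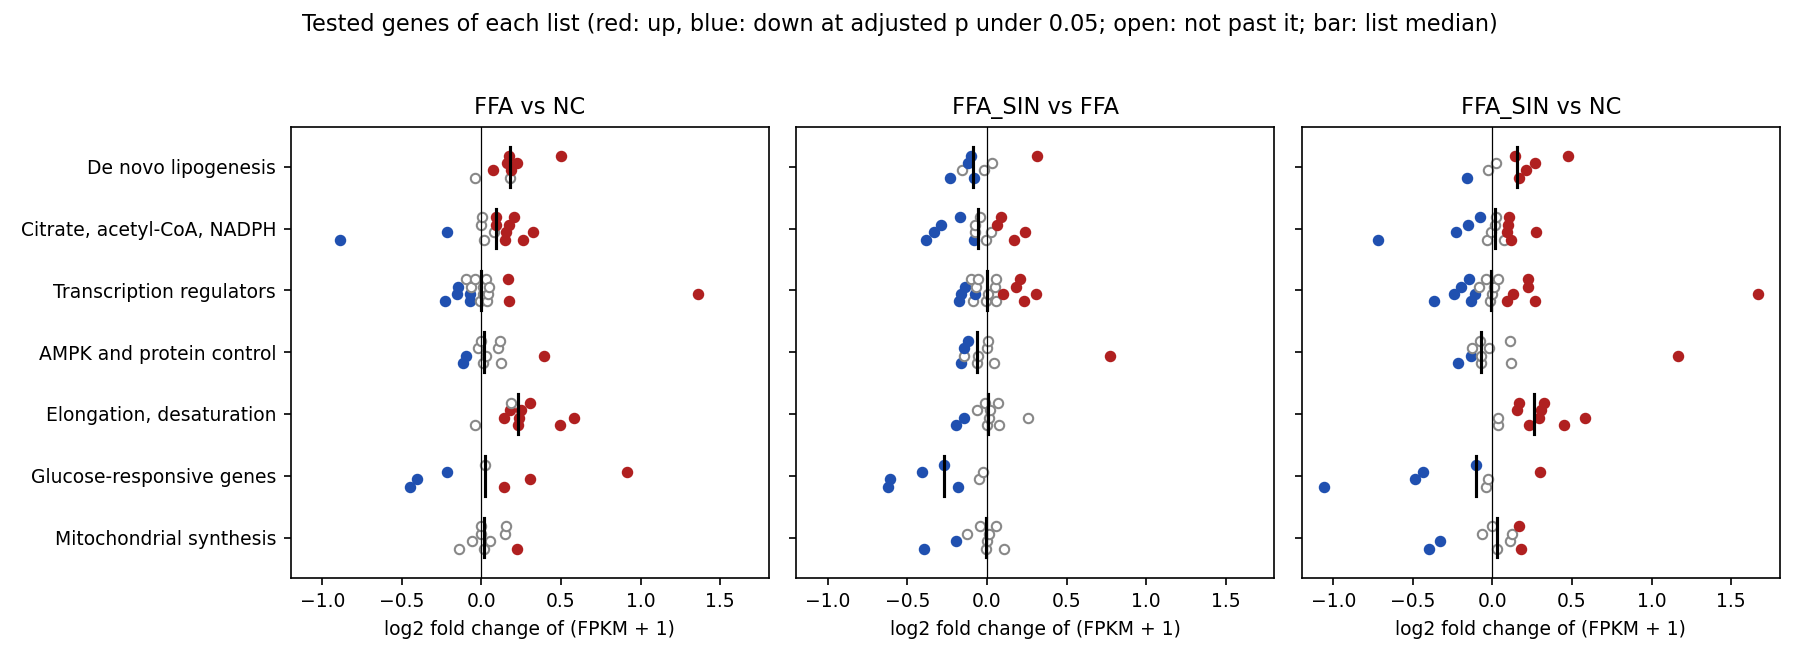
log2 fold change of (FPKM + 1) of every tested gene (points) in the lipogenesis members and 6 related lists (rows) for the 3 comparisons (panels); black bars mark the median of each list. The medians of the lipogenesis and the elongation lists lie at 0.18 and 0.23 in FFA against NC, and that of the glucose-responsive list at -0.27 in FFA_SIN against FFA.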

How the data were processed

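RNA from 9 AML12 libraries was analysed. Total RNA was extracted with the mirVana kit and libraries were made with a stranded TruSeq kit, per the labels' protocols. Reads were trimmed with Trimmomatic and aligned with HISAT2 to GRCm39, per the submitters' processing notes; the sources used here do not name the counting tool, the annotation or the strand setting. The deposited table holds FPKM values per gene made by the authors; its header names no unit, which was inferred from the values. Low values (under 0.5 FPKM) gave the libraries' relative depth by their modal ratio, and GENCODE vM21 exon lengths then gave whole reads (within 0.01) for 27063 genes (89.2%). Symbols were matched by identifier for 28734 genes (94.7%).

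The 11659 genes that averaged 1 FPKM or more entered limma 3.58.1 (R 4.3.3) as log2(FPKM + 1), which understates changes of low genes: group means, a variance trend, all 9 libraries, two-sided p-values adjusted by Benjamini and Hochberg within a comparison over all genes tested, threshold 0.05. The planned path for raw counts did not apply. Other work was done in Python 3.11.15 with pandas 2.3.3 and scipy 1.17.1. The fit was tested on simulated data. The members and lists were chosen with earlier results of these data known. All members were named. Per other list and comparison, up to 3 changed genes with the smallest adjusted p were followed under the alternatives. Not all of these are named here. Pgd, Idh2, Pgls, the markers and genes below the filter were named outside this rule. Alternatives were a pseudocount of 0.1, no filter, a filter at 5 FPKM, median-of-ratios and TPM scaling, replicate number as a block, only the groups compared, no variance trend, each library left out and, added after the data were seen, limma-voom on recovered reads.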

Additional observations from a re-analysis of the deposited data

How the results depend on the processing

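For the members, 405 of 429 values under the alternatives kept their direction and their side of the threshold; 20 missed the threshold and 2 newly passed it. Those that missed it were for Fasn in FFA against NC (12) and for Acly (7) and Fasn (1) in FFA_SIN against FFA. Beside those given above, Fasn had an adjusted p of 0.0911 with no filter, 0.0560 with median-of-ratios scaling, 0.217 as TPM, 0.0705 with only the 2 groups compared and 0.0803 with no variance trend. In addition 2 turned direction, both for Mlxipl in FFA_SIN against NC, which was never called: -0.045 without NC replicate 1 and -0.011 without FFA_SIN replicate 2, in a range of -0.045 to 0.069 with each library left out. For the genes followed from the other lists 879 of 896 values kept both and 17 missed the threshold. Those that missed it were for Stk11, Prkaa1, Acsf3 and Elovl7. The number of changed members was 5 to 6 in FFA against NC, 3 to 5 in FFA_SIN against FFA (3 without FFA_SIN replicate 1) and 6 in FFA_SIN against NC with each library left out in turn. The Scd1 to Scd2 ratio gave p = 0.0107 to 0.0357 by the exact permutation test with each library left out.

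Same-numbered libraries showed no clear shared deviation (correlations over tested genes of -0.015 to 0.174, not all above 0.1). With 3 libraries per group, this cannot exclude that replicate numbers pair the samples. With the replicate block 4338, 3607 and 6006 genes changed in the 3 comparisons, against 4369, 3638 and 5977 without, and 6, 5 and 6 members. Permuted within the replicate block, the Scd1 to Scd2 ratio gave an exact p = 0.111 (smallest possible 0.0278) and the Acaca to Acacb ratio 0.639. With a pseudocount of 1 on both genes the Acaca to Acacb ratio gave an exact permutation p = 0.0357; Acacb is far below that pseudocount, so the value then follows Acaca alone. Mlxipl had no value with the filter at 5 FPKM. Depth limited Acacb and Thrsp, with at most 26 reads in a library.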

Other observations

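Other lipid genes of the lists lay below the 1 FPKM filter and were described without a test. Pparg, the adipogenic nuclear receptor that also drives lipogenic genes in fatty liver, had 0.785 to 0.893 FPKM in NC, 0.569 to 0.655 in FFA and 0.277 to 0.474 in FFA_SIN, with no overlap between groups. Of genes tested, 48.9% did not overlap in FFA against NC, 45.5% in FFA_SIN against FFA and 60.1% in FFA_SIN against NC. No such share was taken for genes below the filter. Cfd, which encodes the adipocyte-secreted complement factor D and was on the adipocyte marker list, had 0 reads in all NC and FFA libraries and 0.401 to 1.28 FPKM in FFA_SIN (161 reads over the group, 95% exact Poisson interval 137 to 188). Adipoq, the adipocyte hormone adiponectin, totalled 2 reads over the NC libraries, 4 over FFA and 60 over FFA_SIN (95% exact Poisson interval 45.8 to 77.2), or at most 0.361 FPKM. Plin1, the droplet coat of fat cells, had 2, 0 and 31 reads in the same order, at most 0.0520 FPKM.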
